A study of Homo sapiens with 6 samples.

Results

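Aminoacyl-tRNA synthetases are the enzymes that join each amino acid to its tRNA, and 40 genes of this family and its partners were followed in 6 RNA libraries of U87MG, an established human glioblastoma cell line. The genes were chosen by name: 20 subunits or enzymes that act in the cytosol, 16 mitochondrial enzymes whose symbols end in 2, and 4 partner proteins, out of 24462 gene symbols in the count table. Cells were kept for 24 h either in DMEM without serine and glycine (deprived) or in DMEM that held both (complete), with 3 libraries per medium, and were described as naïve in both groups. All cells had been maintained in medium with 10% fetal bovine serum. The line is a single established culture, and separate cultures are not stated for the 3 libraries of a medium, so that p-values measure a spread between libraries that may be technical.

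Synthetases fall into class I and class II, a pair of unrelated folds that carry out the same reaction. Several cytosolic enzymes are held together in the multi-synthetase complex by the scaffold proteins AIMP1, AIMP2 and EEF1E1, while others act alone, and most mitochondrial enzymes are encoded by separate nuclear genes. A tRNA left without its amino acid activates the kinase GCN2 (the product of EIF2AK4), which leads to translation of the transcription factor ATF4, and in mammalian cells ATF4 is known to drive many genes of amino acid supply, several cytosolic synthetases among them.

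Because members of one branch varied together across libraries, the promoters of the family were read for the composite element at which ATF4 pairs with C/EBP proteins. The element was searched as TGATGNAA, and in its commonest form TGATGCAA, which is a subset of it, on both strands of the 300 bases from 250 before to 50 after each RefSeq transcript start (assembly GRCh38.p14). A window was matched for 34 of the 40 members, and none was used for DARS, LARS, VARS, YARS, AARS2 and VARS2. Matches in cytosolic members were found in 7 genes, 6 of them shown here as 30 bases in the direction of the gene, with the match in capitals and read as TTGCATCA or TTTCATCA where it lies on the opposite strand.
CARS: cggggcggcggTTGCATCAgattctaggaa
GARS: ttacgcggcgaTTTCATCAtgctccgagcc
IARS: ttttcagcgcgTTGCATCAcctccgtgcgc
MARS: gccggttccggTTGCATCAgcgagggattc
NARS: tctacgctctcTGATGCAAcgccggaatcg
TARS: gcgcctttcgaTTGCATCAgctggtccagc

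These stretches lie at chr11:3057407-3057436 (minus strand) for CARS, chr7:30594834-30594863 (plus) for GARS, chr9:92293692-92293721 (minus) for IARS, chr12:57488053-57488082 (plus) for MARS, chr18:57621804-57621833 (minus) for NARS and chr5:33440956-33440985 (plus) for TARS. The match began 187 bases before the transcript start in AARS and lay within 33 bases of a start in the others. CARS, GARS and TARS each had 2 windows, of which 1 held the match. The only match in a mitochondrial member was in YARS2, with a different sixth base, beginning 197 bases before the start.
YARS2: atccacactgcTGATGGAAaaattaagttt

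The form TGATGNAA was present for 7 of 16 cytosolic members with a window, or 43.8%, for 1 of 14 mitochondrial members, or 7.14%, and for 0 of the 4 partner genes. Over all RefSeq windows of the same length it was present in 3.62%, that is in 1270 of 35116. Counted per gene, as for the members, it was present for 4.46% of all genes and 3.6% of protein-coding genes. The stricter TGATGCAA was present for 6 of 16 cytosolic members, 0 of 14 mitochondrial members and 0.903% of protein-coding genes. A match is a description of letters and not a bound site, and the search was chosen with the expression pattern known.

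**Figure D1:**
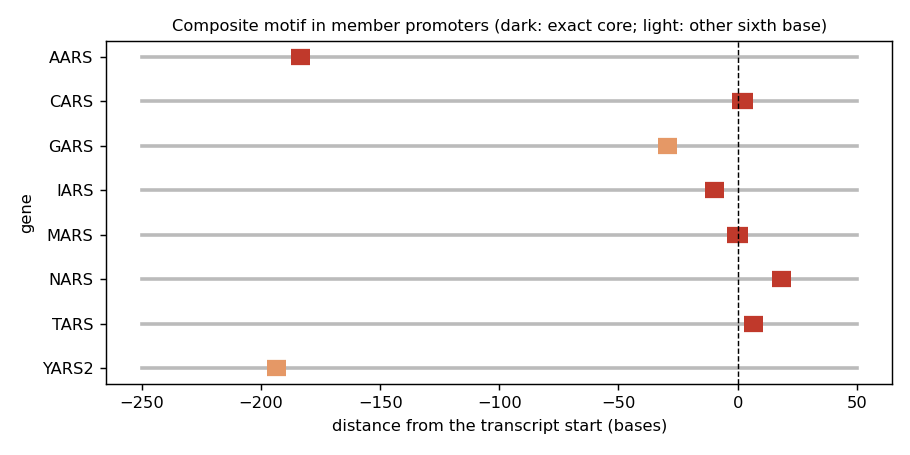
Position of the composite element TGATGNAA in the 8 members that held it, in bases from the transcript start (dashed line), with the 300-base window in grey. Dark blocks are TGATGCAA, light blocks (GARS and YARS2) differ at the sixth base, and 6 of the 8 lie within 33 bases of the start, while AARS and YARS2 lie 187 and 197 bases before it.

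The wider context differs between genes that shared the expression pattern described below. The 250 bases before the starts of IARS (chr9:92293698-92293947, minus strand) and SARS (chr1:109213643-109213892, plus strand) show a match near the start and no match, with the match in capitals. SARS is shown because it charges the tRNA for serine, which was withheld together with glycine. It had 2 windows, neither with a match, and the stretch before 1 of these starts is shown.
IARS: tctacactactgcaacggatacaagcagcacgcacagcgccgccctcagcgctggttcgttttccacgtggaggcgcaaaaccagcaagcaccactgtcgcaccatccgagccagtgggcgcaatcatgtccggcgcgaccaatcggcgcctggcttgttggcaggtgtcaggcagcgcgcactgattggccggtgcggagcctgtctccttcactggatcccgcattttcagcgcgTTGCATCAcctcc
SARS: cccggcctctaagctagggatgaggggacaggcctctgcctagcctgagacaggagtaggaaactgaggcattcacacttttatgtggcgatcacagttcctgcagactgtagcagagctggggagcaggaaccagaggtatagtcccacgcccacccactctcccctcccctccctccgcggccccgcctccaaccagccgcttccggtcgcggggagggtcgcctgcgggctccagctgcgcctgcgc

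The libraries did not group by their labels, which touches every result that follows. Totals were 6249706 to 7247995 counts per library, and levels are given as CPM, counts scaled by TMM to a common library size. ATF4 measured 414, 409 and 477 CPM in complete 1, deprived 1 and deprived 3 and 162, 174 and 154 CPM in deprived 2, complete 2 and complete 3, and ASNS, the asparagine synthetase that ATF4 is known to drive, 134, 152 and 147 CPM against 25.0, 26.2 and 19.9 CPM. In the deposited table the columns for deprived 1, complete 1 and deprived 3 come first, before those for deprived 2, complete 2 and complete 3. Whether the labels of deprived 2 and complete 1 were exchanged was not tested and cannot be told from the files, and if they were, each mean and fold change by label would mix both media. No label was changed, each result is given by label with all libraries, and values without deprived 2 and complete 1, the pair whose levels lay with the other medium, are given beside it. Since that pair was picked by its values, counts from the remaining 2 against 2 libraries are a description and no independent test of the medium.

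By label, none of the 40 members passed the threshold (Benjamini-Hochberg adjusted p of 0.05, quasi-likelihood test of edgeR), where 0 of all 13068 genes tested, or 0%, passed. A gene past this threshold is said here to be called. At an unadjusted p under 0.05 the count was 0 of 40 members, against 1.89% of all genes, and DESeq2 and limma-voom likewise gave 0 of 40 by either threshold. All 40 members passed the filter on low counts. Removing 1 library at a time moved the log2 fold change of GARS, the highest by label, from 0.24 without deprived 3 to 0.96 without complete 1, still uncalled. Cytosolic members had a median log2 fold change (deprived over complete) of 0.09, with 14 of 20 above 0, mitochondrial members 0.02, with 10 of 16 above 0, and the 4 partners 0.07, with 4 above 0, beside a median of 0.003 and 51.0% above 0 over all genes. The cytosolic median ran from 0.04 without deprived 3 to 0.21 without complete 1 when libraries were left out singly, the mitochondrial median from -0.03 without deprived 2 to 0.04 without complete 2, and that of the partners from 0.01 without complete 2 to 0.09 without deprived 1. The groups did not overlap by label for FARSA and EARS2 alone, both lower in each deprived library than in any complete one, as were 3.49% of all genes, and no member lay higher in each deprived library, as did 3.48%.

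**Figure D2:**
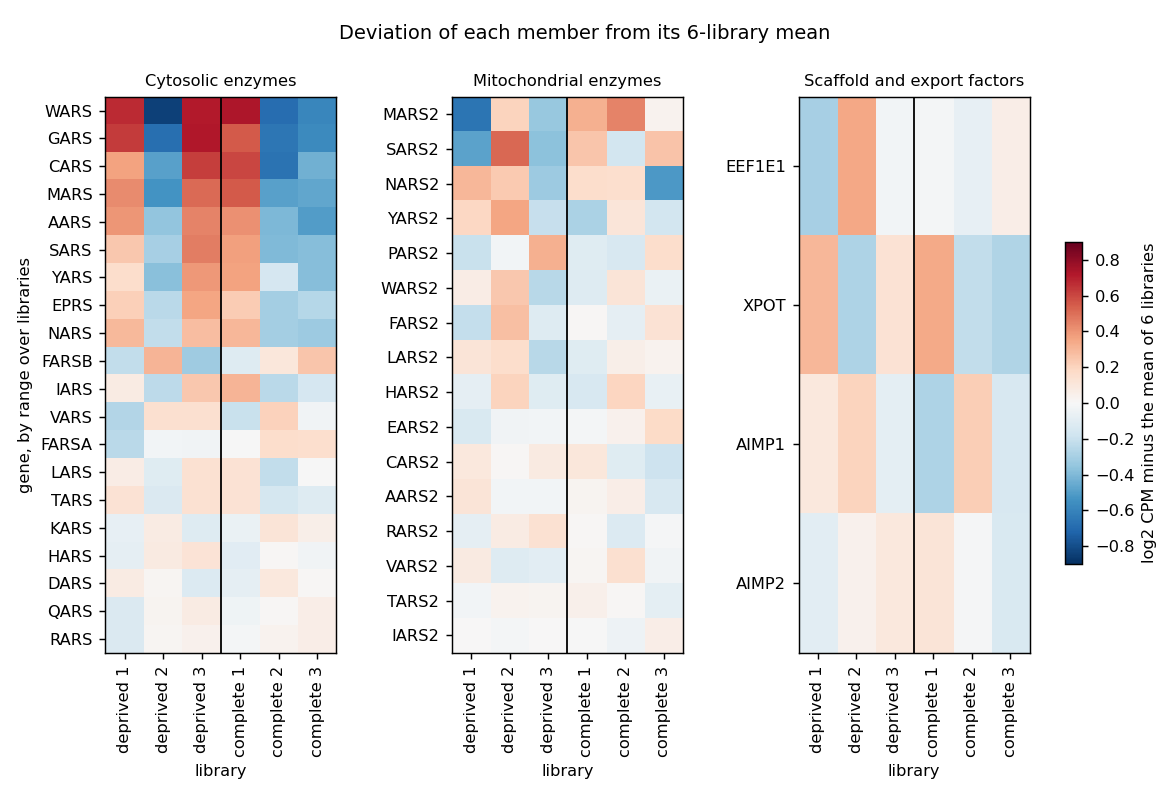
Deviation of each member's log2 CPM from its mean over 6 libraries, in columns by library (the vertical line parts deprived from complete) and rows by gene, sorted by range within each branch. Cytosolic enzymes from WARS to NARS are high in complete 1, deprived 1 and deprived 3 and low in the other libraries, a pattern that most mitochondrial rows lack.

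More cytosolic than mitochondrial enzymes were highest in the libraries where ATF4 was highest. The 3 highest values lay in complete 1, deprived 1 and deprived 3 for 12 of 20 cytosolic members, or 60.0%, for 1 of 16 mitochondrial members, or 6.25%, and for 1 of 4 partners, against 18.3% of all genes. The 3 lowest values lay there for 2 cytosolic members and 1 mitochondrial member, against 17.7% of all genes. In RNA of bulk cultures, fewer cells expressing a gene and less RNA per cell cannot be told apart. Summed over the 20 cytosolic members, complete 1, deprived 1 and deprived 3 held 4502, 4328 and 4599 CPM, and deprived 2, complete 2 and complete 3 held 3335, 3294 and 3346 CPM. The 16 mitochondrial members summed to 467 to 506 CPM in all 6 libraries, highest in deprived 2, and the partners to 229 to 267 CPM.

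SARS, the cytosolic seryl-tRNA synthetase, charges the tRNA for serine, which was withheld together with glycine. Its level was 408, 280 and 474 CPM in deprived 1, 2 and 3 and 445, 261 and 264 CPM in complete 1, 2 and 3. Deprived 2 lay with complete 2 and 3, and complete 1 with deprived 1 and 3, so the labels overlapped. By label the means were 387 ± 98.3 CPM (SD, n = 3) and 323 ± 105 CPM (SD, n = 3), with a log2 fold change of 0.26 (SE, the standard error, 0.24), within the spread between libraries. Leaving out deprived 2 and complete 1 gave a log2 fold change of 0.75 (SE 0.07).

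GARS encodes glycyl-tRNA synthetase for both the cytosol and mitochondria. It stood at 304, 122 and 323 CPM in deprived 1, 2 and 3 and at 288, 125 and 132 CPM in complete 1, 2 and 3. The lowest of complete 1, deprived 1 and deprived 3 was 2.19 times the highest of the other libraries. Its log2 fold change by label, 0.46 (SE 0.39), was the highest among the members, and its edgeR adjusted p was 0.999, as for every member. With that pair of libraries left out it was 1.29 (SE 0.07).

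WARS, the tryptophanyl enzyme, had the widest range of all members, 1.57 on the log2 CPM scale. It measured 193, 67.7 and 200 CPM in deprived 1, 2 and 3 and 202, 75.5 and 80.8 CPM in complete 1, 2 and 3, a gap of 2.39 times between the lowest of the high libraries and the highest of the others. Its log2 fold change by label was 0.37 (SE 0.45), and 1.33 (SE 0.08) without deprived 2 and complete 1. WARS is also known as an interferon-induced gene.

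Other free-standing enzymes followed in smaller steps. CARS, for cysteine, had 174, 95.9 and 208 CPM in deprived 1, 2 and 3 and 205, 85.2 and 100 CPM in complete 1, 2 and 3. AARS, for alanine, had 159, 94.2 and 164 CPM in the deprived and 161, 90.8 and 85.0 CPM in the complete libraries, in the same order. The lowest of complete 1, deprived 1 and deprived 3 was 1.74 times the highest other library for CARS and 1.68 times for AARS. YARS, for tyrosine, had 133, 91.3 and 156 CPM in the deprived and 153, 107 and 90.7 CPM in the complete libraries, its closest values from the 2 sides differing 1.24 times.

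NARS, the asparaginyl enzyme, and TARS, the threonyl enzyme, had the same 3 libraries highest. NARS was at 494, 346 and 489 CPM in deprived 1, 2 and 3 and at 496, 327 and 321 CPM in complete 1, 2 and 3. TARS was at 654, 545 and 656 CPM in the deprived and at 653, 534 and 550 CPM in the complete libraries, a gap of 1.19 times, against 1.41 times for NARS. After removal of deprived 2 and complete 1, the log2 fold changes were 1.05 for CARS, 0.88 for AARS, 0.60 for NARS, 0.55 for YARS and 0.27 for TARS, with standard errors from 0.07 to 0.09, while by label they ran from 0.10 for TARS to 0.31 for AARS.

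**Figure D3:**
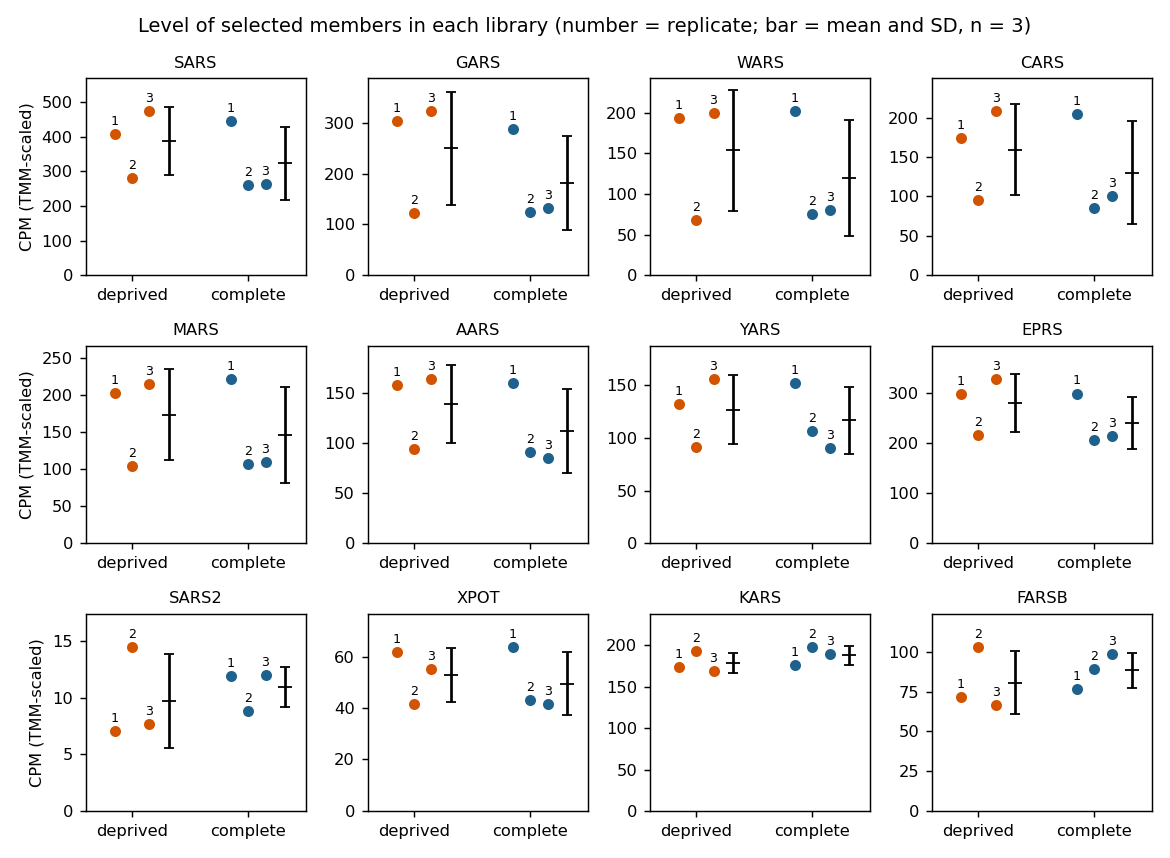
TMM-scaled CPM of 12 members by library (points, numbered by replicate), with the mean and SD of 3 libraries per medium as bars, on axes that start at 0. In SARS through EPRS and in XPOT, deprived 2 sits with complete 2 and 3 and complete 1 with deprived 1 and 3, while SARS2 and KARS show no such gap upward and FARSB is lowest in complete 1, deprived 1 and deprived 3.

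The 8 enzymes of the multi-synthetase complex were split. MARS, the methionyl enzyme, had 202, 103 and 214 CPM in deprived 1, 2 and 3 and 221, 107 and 109 CPM in complete 1, 2 and 3. EPRS, a fused enzyme for glutamate and proline, had 296, 216 and 327 CPM in the deprived and 298, 206 and 214 CPM in the complete libraries. IARS, for isoleucine, had 170, 138 and 192 CPM in the deprived and 201, 137 and 146 CPM in the complete libraries. These 3 and LARS, for leucine, had their highest values in complete 1, deprived 1 and deprived 3, LARS by the narrow margin of 179 against 171 CPM.

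The other enzymes of the complex stayed near one level. RARS, for arginine, lay between 258 and 295 CPM, QARS, for glutamine, between 91.1 and 105 CPM, and DARS, for aspartate, between 163 and 189 CPM over all 6 libraries. KARS, which serves lysine in cytosol and mitochondria, was at 174, 193 and 169 CPM in deprived 1, 2 and 3 and at 176, 198 and 190 CPM in complete 1, 2 and 3. Its lowest values lay in complete 1, deprived 1 and deprived 3, the reverse of SARS. Log2 fold changes in the complex without deprived 2 and complete 1 ran from -0.18 for KARS to 0.95 for MARS. In that fit 3 of 8, or 37.5%, were called higher, against 8 of 12 cytosolic members outside the complex, or 66.7%. Both shares lay above the 8.57% of all genes, and the difference between them was not tested.

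Phenylalanyl-tRNA synthetase, built from the subunits FARSA and FARSB, differed from the 8 free-standing enzymes described above. FARSB measured 71.4, 103 and 66.6 CPM in deprived 1, 2 and 3 and 76.7, 89.3 and 98.8 CPM in complete 1, 2 and 3. FARSA measured 88.3, 103 and 102 CPM in the deprived and 104, 117 and 116 CPM in the complete libraries. By label FARSA had means of 97.9 ± 8.27 and 113 ± 7.03 CPM (SD, n = 3 each), a log2 fold change of -0.20 (SE 0.10) and an adjusted p of 0.999 from edgeR. Without deprived 2 and complete 1 the log2 fold changes were -0.29 for FARSA and -0.45 for FARSB, the 2 members called lower there.

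HARS, for histidine, and VARS, for valine, completed the cytosolic list without a shared order of libraries. HARS ranged from 55.2 to 64.4 CPM and VARS from 35.8 to 49.7 CPM. VARS stood on several rows of the table, and the rows other than the one used held 0 counts. HARS and its mitochondrial paralogue HARS2 start 85 bases apart in opposite directions on chromosome 5 of GRCh38.p14, and HARS2 ranged from 15.5 to 19.8 CPM.

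Over the cytosolic branch, 11 of 20 members, or 55.0%, were called higher and 2, or 10.0%, lower by edgeR without deprived 2 and complete 1, where 8.57% of all genes were called higher and 7.38% lower. The median log2 fold change of the 20 was 0.31 in that fit, against 0.0006 over all genes. The 11 were AARS, CARS, EPRS, GARS, IARS, MARS, NARS, SARS, TARS, WARS and YARS. All 7 cytosolic genes with a TGATGNAA match were among them, as were 3 of the 9 whose windows held none, namely EPRS, SARS and WARS. YARS had no window. The search was chosen with the expression pattern known, and the share called higher among all genes with a match was not computed. A link between match and level was not tested. Class I enzymes gave 5 of 9 and class II enzymes 5 of 10 called higher, with EPRS, which belongs to both, left out.

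**Figure D4:**
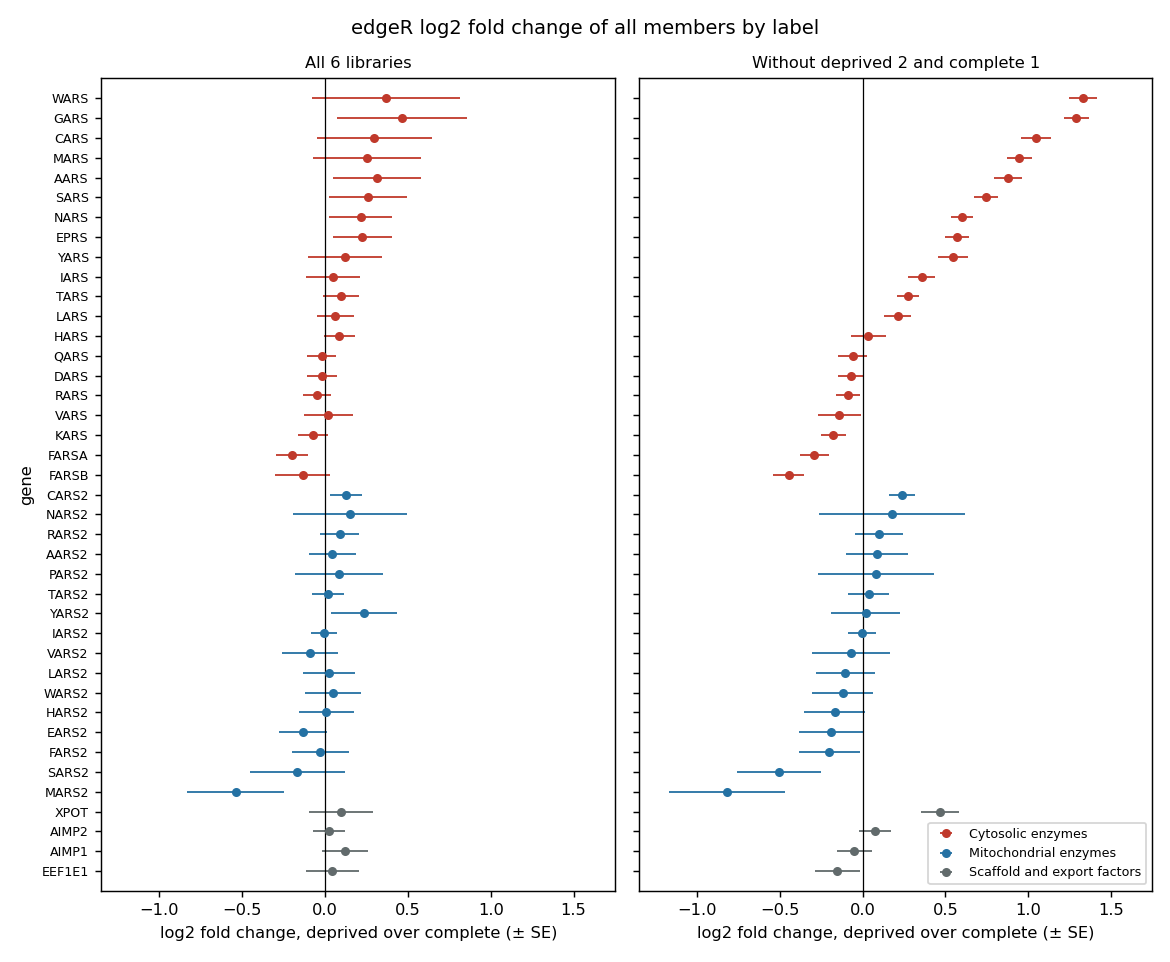
Log2 fold change, deprived over complete, of the 40 members with its standard error, from edgeR with all 6 libraries (left) and without deprived 2 and complete 1 (right), by branch. With all libraries every value lies between -0.54 and 0.46, and without that pair cytosolic enzymes run up to 1.33 while mitochondrial enzymes lie between -0.82 and 0.24.

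Mitochondrial enzymes charge the tRNAs encoded by the mitochondrial genome. SARS2, the mitochondrial seryl enzyme, was at 7.03, 14.5 and 7.66 CPM in deprived 1, 2 and 3 and at 12.0, 8.86 and 12.0 CPM in complete 1, 2 and 3, from 49 to 102 counts. It did not follow SARS, its highest value being in deprived 2. Its log2 fold change was -0.17 (SE 0.29) by label, and -0.50 (SE 0.25) without deprived 2 and complete 1, not called in either fit.

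CARS2, the mitochondrial cysteinyl enzyme, was the 1 member of its branch highest in complete 1, deprived 1 and deprived 3. It had 163, 154 and 162 CPM in deprived 1, 2 and 3 and 164, 142 and 134 CPM in complete 1, 2 and 3, so that its lowest high library was 1.05 times the highest of the others. It was called higher without deprived 2 and complete 1, with a log2 fold change of 0.24 (SE 0.08). In that fit it was the only 1 of 16 mitochondrial members called, or 6.25%, a share near the 8.57% of all genes called higher. By label its log2 fold change was 0.12 (SE 0.10).

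The widest ranges among mitochondrial members belonged to genes with few counts. MARS2, for methionine, had 2.87, 5.54 and 3.69 CPM in deprived 1, 2 and 3 and 6.06, 6.65 and 4.90 CPM in complete 1, 2 and 3, from 20 to 48 counts, and its log2 fold change by label, -0.54 (SE 0.29), was the lowest of all members and uncalled. NARS2, for asparagine, had 3.73, 3.55 and 2.27 CPM in the deprived and 3.35, 3.32 and 1.93 CPM in the complete libraries, from 13 to 26 counts. YARS2, for tyrosine, the mitochondrial member with a motif match, had 15.6, 17.6 and 11.8 CPM in the deprived and 11.2, 14.8 and 12.2 CPM in the complete libraries. None of the 3 ordered the libraries as ATF4 did, and at these counts small differences were not detectable.

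Apart from CARS2, the best-covered mitochondrial members, IARS2 and TARS2, were nearly level. IARS2, for isoleucine, lay between 108 and 116 CPM and TARS2, for threonine, between 39.1 and 42.9 CPM in all 6 libraries. Their log2 fold changes were -0.01 (SE 0.08) and 0.02 (SE 0.10) by label. RARS2, for arginine, lay between 27.1 and 32.6 CPM. The others, AARS2, EARS2, FARS2, HARS2, LARS2, PARS2, VARS2 and WARS2, had log2 fold changes by label from -0.13 for EARS2 to 0.08 for PARS2.

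Cytosolic and mitochondrial enzymes were also set side by side for the same amino acid, with FARS2 paired with both FARSA and FARSB. The log2 ratio of cytosolic to mitochondrial level was highest in complete 1, deprived 1 and deprived 3 for 9 of 16 pairs, lowest for 1 and mixed for 6, a count for which no share over other genes was computed. For tryptophan the ratio of WARS to WARS2 deviated from its mean by 0.60, -1.08 and 0.96 in deprived 1, 2 and 3 and by 0.84, -0.80 and -0.53 in complete 1, 2 and 3. For alanine the ratio of AARS to AARS2 deviated by 0.28, -0.33 and 0.47 in the deprived and by 0.39, -0.46 and -0.35 in the complete libraries. For arginine, where neither enzyme moved with ATF4, the deviations of RARS over RARS2 ran only from -0.10 to 0.15.

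**Figure D5:**
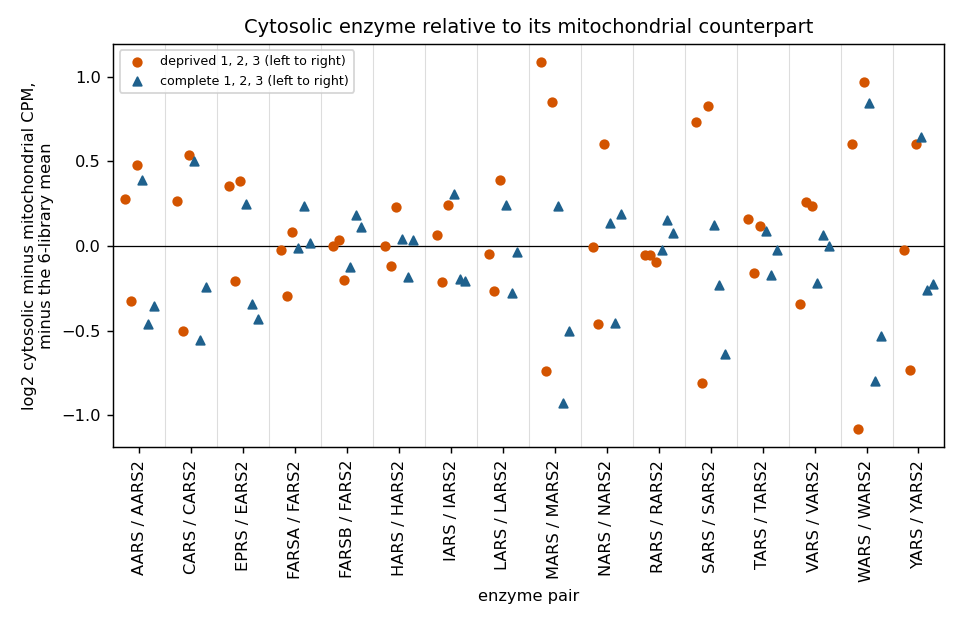
Log2 ratio of each cytosolic enzyme to its mitochondrial counterpart, as deviation from the 6-library mean, for 16 pairs (circles deprived, triangles complete, libraries 1 to 3 from left to right). In 9 pairs, among them WARS/WARS2 and AARS/AARS2, complete 1, deprived 1 and deprived 3 all lie above the other libraries.

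Among the partners, XPOT, the exportin that carries mature tRNAs out of the nucleus, had the order of the cytosolic enzymes. It measured 61.9, 41.5 and 55.2 CPM in deprived 1, 2 and 3 and 63.8, 43.2 and 41.6 CPM in complete 1, 2 and 3. Its log2 fold change was 0.10 (SE 0.19) by label, and 0.46 (SE 0.11) without deprived 2 and complete 1, where it was the 1 partner of 4 called higher. No TGATGNAA match lay in its window.

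The scaffold genes did not share that order. AIMP1, which also yields a secreted cytokine, was at 82.7, 89.1 and 72.9 CPM in deprived 1, 2 and 3 and at 64.1, 90.4 and 70.2 CPM in complete 1, 2 and 3. AIMP2 was at 80.6, 88.6 and 92.2 CPM in the deprived and at 93.4, 85.4 and 78.4 CPM in the complete libraries. EEF1E1, also called AIMP3, had 30.5, 48.0 and 36.9 CPM in the deprived and 37.1, 35.7 and 39.2 CPM in the complete libraries, its extremes both being deprived. Their log2 fold changes by label were 0.12, 0.02 and 0.04, each below its standard error, and without deprived 2 and complete 1 they were -0.05, 0.08 and -0.15, none called.

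Other steps of tRNA supply were read from lists of genes. Of 18 further charging factors, 0 were called by label, as were 0% of all genes. Without deprived 2 and complete 1 again 0 were called, beside 8.57% of all genes called higher and 7.38% lower, small shares for 18 genes. SEPSECS, which makes selenocysteine on its tRNA from phosphoserine, measured 7.60, 6.68 and 7.23 CPM in the deprived and 4.78, 5.68 and 3.56 CPM in the complete libraries. Its log2 fold change by label was 0.61 (SE 0.24), and its edgeR adjusted p was 0.999. It was the only 1 of the 18 factors higher in each deprived library, beside 3.48% of all genes. Another 1 was lower in each, beside 3.49%.

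Of 22 tested genes of tRNA maturation, 0 were called by label, and without deprived 2 and complete 1 edgeR called 1 higher, or 4.55%, and 3 lower, or 13.6%, beside 8.57% and 7.38% of all genes. POP7, a subunit of RNase P, had a log2 fold change of -0.21 (SE 0.12) by label, and CLP1, a kinase of the tRNA splicing complex, 0.40 (SE 0.23). Of 22 genes of RNA polymerase III and its factors, which transcribe tRNA genes, 0 were called by label. Without that pair of libraries 0 were called higher, beside 8.57% of all genes, and 2 lower, or 9.09%, beside 7.38%. The 3 lowest values lay in complete 1, deprived 1 and deprived 3 for 31.8% of them and 27.3% of the maturation genes, against 17.7% of all genes. The 3 highest lay there for 13.6% and 4.55%, against 18.3%. GTF3C2, a subunit of TFIIIC, had means of 34.6 ± 2.97 CPM in the deprived and 42.2 ± 1.98 CPM in the complete libraries (SD, n = 3 each). Its log2 fold change was -0.29 (SE 0.11). BRF1, a subunit of TFIIIB, had one of -0.36 (SE 0.16), and both had an edgeR adjusted p of 0.999 by label. These 2 of the 22 genes were lower in each deprived than in any complete library, beside 3.49% of all genes. Of 11 genes of the amino acid response, 0 were called by label. In complete 1, deprived 1 and deprived 3, 9, or 81.8%, were highest, beside 18.3% of all genes. Without the same pair of libraries 8, or 72.7%, were called higher, beside 8.57%. ATF4 and ASNS are in both counts. The library order was described from their values, so the counts are no independent test of it. EIF2AK4, the sensor kinase itself, was among the 9 highest there by a gap of only 1.01 times, and lay between 93.2 and 101 CPM in all 6 libraries.

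Of 8 markers of glioma cells, VIM, CD44, FN1 and NES were expressed at 42.2 CPM or more in each library, whereas S100B had 0 counts in all libraries and GFAP and SOX2 stayed below 1 CPM and OLIG2 between 1.52 and 6.85 CPM. Of 5 markers tested, the 4 expressed ones were each lowest in complete 1, deprived 1 and deprived 3, beside 17.7% of all genes. Without deprived 2 and complete 1 edgeR called those 4 lower, beside 7.38% of all genes. OLIG2, also tested, did not share that order, had a log2 fold change of 0.27 in that fit and was not called. CD44, a surface receptor for hyaluronan, stood at 542, 542 and 543 CPM in complete 1, deprived 1 and deprived 3 but reached 807 CPM in deprived 2 and 862 and 798 CPM in complete 2 and 3. VIM, an intermediate filament protein, stood at 5441, 5110 and 5418 CPM against 6848, 6719 and 6914 CPM. Of 12 markers of other cell types, CD3E, CDH1 and KRT5 had 0 counts in all libraries, and PTPRC reached 0.567 CPM. Low levels were detected for MBP, which reached 9.18 CPM, PECAM1, which reached 2.29 CPM, and EPCAM, which reached 1.66 CPM. The list summed to 205 to 345 CPM, nearly all from the collagen gene COL1A1. COL1A1 stood at 198, 213 and 221 CPM in complete 1, deprived 1 and deprived 3 and at 335, 320 and 306 CPM in the others, and the part of these marker differences in the results on synthetases was not tested.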

How the data were processed

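Transcripts of U87MG cells were counted in 6 libraries. Per the labels' protocols, each library used 500 ng of RNA and a QuantSeq kit, which reads 3′ ends, so that a count does not grow with the length of a transcript. A single table of raw counts, listed by symbol and not normalized, was deposited by the authors. The submitters' processing notes name the aligner Bowtie2. Counter, build, annotation and strand setting were not given in the sources used here, so counts of genes that overlap others or have near-identical copies are uncertain. Columns were matched to samples by title.

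All 13068 genes that passed the edgeR filterByExpr function (minimum count 10) were fitted with edgeR 4.0.16 in R 4.3.3, with TMM scaling, a group term and the quasi-likelihood test, and Benjamini-Hochberg adjustment over all of them at 0.05. The standard error is the log2 fold change divided by the root of F. Log2 CPM used a prior count of 3. Where a symbol had several rows, the row with the most counts was taken. The procedure was tested on simulated data. Alternatives used DESeq2 1.42.0, limma 3.58.1, other scalings, filters, a replicate block and left-out libraries. A count of 3 equals 0.415 to 0.478 CPM, which covers counting error only.

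Promoters were credited to RefSeq GRCh38.p14 and matched by symbol, 18 cytosolic members under a newer symbol ending in 1. Python 3.11.15, pandas 2.3.3 and Matplotlib 3.10.9 were used. The members, lists, motif and named genes were chosen with earlier results of these data known. Named with full values were SARS, SARS2, GARS, the partners, the 8 cytosolic and 4 mitochondrial members of widest range, and, with a fold change at least, up to 2 genes per other list by smallest p. Values of other members, of ATF4-pathway genes and of markers were added after they were seen. A few genes and sequences are not reported here.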

Additional observations from a re-analysis of the deposited data

How the results depend on the processing

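Other scalings, filters, DESeq2, limma-voom and summed rows called 0 genes and 0 members, as did each library left out. Without deprived 2 and complete 1, chosen from their values, edgeR called 2096 of 13145 genes, with 8.57% higher and 7.38% lower. Called in that fit were 13 of 20 cytosolic members, 11 higher and 2 lower. So were 1 of 16 mitochondrial members and 1 of 4 partners, both higher. The cytosolic median log2 fold change was 0.31 there. Pairing by replicate number is not stated in the labels. For that reason the numbers were not taken as pairs. Deviations from the label means of libraries with one number correlated at 0.384, 0.381 and -0.281. Because deprived 2 and complete 1 lay apart from the rest of their labels, these values cannot decide whether the numbers are pairs. With the replicate block edgeR called 0 genes, and 2 of 40 members and 429 of 13068 genes had an unadjusted p under 0.05. Without deprived 2 alone the latter counts were 7 of 40 and 1037 of 13296, and without complete 1 alone 10 of 40 and 1141 of 13282. Members with few counts, such as NARS2 at 13 to 26, were limited by depth.

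Log2 fold changes that changed sign were all uncalled, and the cause was not tested. HARS2 was -0.000135 with library totals alone. Without deprived 2 and complete 1 the values were -0.14 for VARS, -0.17 for HARS2, -0.10 for LARS2, -0.12 for WARS2, -0.0488 for AIMP1 and -0.15 for EEF1E1. With each library left out in turn, the range was -0.0169 to 0.0847 for AARS2, -0.0377 to 0.0876 for AIMP2, -0.0627 to 0.0372 for DARS, -0.15 to 0.18 for EEF1E1, -0.20 to 0.067 for FARS2, -0.10 to 0.12 for HARS2, -0.0662 to 0.24 for IARS, -0.0342 to 0.0183 for IARS2, -0.0315 to 0.14 for LARS, -0.0541 to 0.15 for LARS2, -0.0674 to 0.34 for NARS2, -0.0891 to 0.20 for PARS2, -0.061 to 0.0348 for QARS, -0.0817 to 2.81e-05 for RARS, -0.57 to 0.0177 for SARS2, -0.0187 to 0.0469 for TARS2, -0.0726 to 0.14 for VARS, -0.0715 to 0.18 for WARS2, -0.0354 to 0.32 for XPOT and -0.0595 to 0.36 for YARS.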
